A study of Mus musculus with 22 samples.

Results

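The 9 genes described here, Emx1, Emx2, Otx1, Otx2, Six3, Lhx2, Pax6, Sox2 and Hesx1, encode transcription factors that pattern the embryonic forebrain, and they are 9 of 20558 protein-coding autosomal genes. Each was taken from 5 kb before to 1 kb past its RefSeq gene on the GRCm38 mouse assembly. In these windows, 1123 CpGs had at least 10 reads in at least 3 control embryos, of 1052159 such CpGs on the autosomes. The members were chosen by name and not by a methylation value. DNA methylation was measured in C57BL/6 wild-type forebrains at embryonic day 10.5 by rapid reduced representation bisulfite sequencing (rRRBS), in which MspI cuts the DNA at CCGG and unmethylated cytosines are converted. The 6 control embryos came from females injected with saline, and the 16 EtOH-exposed embryos from females injected with ethanol during pre-implantation development, with 1 embryo per library. Sex and litter were not assigned to samples here, and some embryos shared a litter, so the p values treat embryos as independent where some may not be. The data held no expression markers, so the tissue is that of the labels.

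Emx1 and Emx2 are homeobox genes of the dorsal telencephalon, and Otx1 and Otx2 are homeobox genes of the rostral brain, where Otx2 is needed for the forebrain and midbrain to form. Six3 and Hesx1 act at the anterior end of the neural plate, largely as repressors, Lhx2 is a LIM-homeobox selector of the cortex and of the eye field, and Pax6 acts in the eye and in cortical progenitors. Sox2 is an HMG-box factor that marks neural progenitors. Genes of this class often lie in broad stretches of unmethylated CpG-rich DNA that carry Polycomb proteins where the gene is silent, whereas the bodies of most genes are methylated.

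The stretches on which the results turn are printed 5′ to 3′ on the strand of the gene, with each CpG in capitals. They hold a partly methylated patch in coding exon 4 of Otx2 (chr14:48661358-48661450, minus strand) and a weakly methylated patch in intron 7 of Pax6 (chr2:105687183-105687295). They also hold the 3 single CpGs called between conditions by the logistic test given further on. None of these was called with the spread between embryos allowed for. In Emx1, the called CpG is the first of the stretch from intron 2 into exon 3 (chr6:85203893-85203982). In Six3, it is the middle CpG of the stretch before the curated start site (chr17:85619528-85619651). In Lhx2, it is the first CpG of the stretch in intron 4 (chr2:38367378-38367468). The exons of Otx2 and Emx1 shown here code for part of the homeodomain. The 250 bp before the start site of Sox2 (chr3:34649745-34649994) and of Hesx1 (chr14:27000112-27000361) show the contrast in CpG density, with 27 and 2 CpGs. The sequence is that of the GRCm38 reference.
Otx2 exon 4: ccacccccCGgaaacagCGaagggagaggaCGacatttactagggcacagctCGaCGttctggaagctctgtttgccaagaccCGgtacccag
Pax6 intron 7: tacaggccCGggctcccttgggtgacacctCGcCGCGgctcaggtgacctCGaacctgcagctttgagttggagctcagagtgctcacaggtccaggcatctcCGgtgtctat
Emx1 intron 2 to exon 3: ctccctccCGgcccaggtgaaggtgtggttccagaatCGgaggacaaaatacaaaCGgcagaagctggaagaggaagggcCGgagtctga
Six3 upstream: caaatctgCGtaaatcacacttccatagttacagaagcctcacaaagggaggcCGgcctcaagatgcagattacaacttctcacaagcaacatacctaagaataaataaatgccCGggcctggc
Lhx2 intron 4: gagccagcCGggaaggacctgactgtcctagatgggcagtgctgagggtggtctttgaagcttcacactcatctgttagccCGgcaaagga
Sox2 upstream: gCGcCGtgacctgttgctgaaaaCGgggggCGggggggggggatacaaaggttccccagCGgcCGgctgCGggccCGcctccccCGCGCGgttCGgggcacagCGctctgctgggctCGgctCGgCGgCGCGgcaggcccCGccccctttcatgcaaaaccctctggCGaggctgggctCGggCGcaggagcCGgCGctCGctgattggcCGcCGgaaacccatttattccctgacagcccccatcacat
Hesx1 upstream: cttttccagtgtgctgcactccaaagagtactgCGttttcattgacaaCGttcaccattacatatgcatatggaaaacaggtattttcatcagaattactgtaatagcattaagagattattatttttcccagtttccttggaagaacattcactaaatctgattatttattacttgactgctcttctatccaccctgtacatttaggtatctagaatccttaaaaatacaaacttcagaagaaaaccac

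In the RefSeq promoter table of GRCm38.p6, which gives 250 bp before to 50 bp after a start site, 8 of the 9 members had an entry, and the first listed promoter of each gene was used. Emx1 had 37 CpGs in these 300 bp, Lhx2 34, Sox2 27, Emx2 26, Pax6 18, Six3 14, Otx2 6 and Hesx1 4, against a median of 7 over 27025 genes. As many CpGs as in Emx1 were present in 5.37% of the promoters, and as many as in Hesx1 in 68.1%. The sequence CCGG, where MspI cuts, was present in 6 of the 8 members and in 52.6% of all promoters, and it was not found in this window of Otx2 or Hesx1.

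The control files held 68126469 to 132488556 calls and the EtOH-exposed files 89179413 to 216223892. At the windows of the 9 genes, 750 to 1335 CpGs per control and 839 to 1898 per EtOH-exposed embryo had at least 10 reads. The libraries differed in level where DNA is unmethylated. Over 39343 tiles of 100 bp with a median level under 1%, the level ran from 0.672 to 1.52% in controls and from 0.260 to 2.54% in EtOH-exposed embryos (0.955% ± 0.429 SD, n = 6, and 1.02% ± 0.805 SD, n = 16; exact permutation test, two-sided, p = 0.861). EtOH-exposed embryos 4, 5 and 6 were the highest and EtOH-exposed embryos 1, 2, 3, 9, 12 and 14 the lowest, and neither set held a control. The remaining 7 EtOH-exposed embryos lay in the range of the 6 controls, with steps of at most 1.3 times between neighbours, and these 13 are called the shared library group. The log2 ratio of reads at methylated to reads at unmethylated tiles was −1.18 ± 0.445 SD in controls and −1.90 ± 0.866 SD in EtOH-exposed embryos (exact permutation test, p = 0.0704), and it was lowest, from −3.32 to −3.12, in EtOH-exposed embryos 4, 5 and 6.

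In control forebrains, the patterning genes were unmethylated over long stretches. Of the 1123 CpGs, 1066 had a mean control level under 5%, 35 a level of 5 to 20%, 13 a level of 20 to 80% and 9 a level of 80% or more. The unmethylated domain of a gene was followed from its most upstream curated start site through CpGs with a mean control level under 20%, until 2 CpGs in a row were at or above 20% or no further CpG was measured. Its extent was 23880 bp at Pax6, 20818 bp at Lhx2, 16721 bp at Six3, 11610 bp at Otx1, 8179 bp at Emx2, 7580 bp at Emx1, 7331 bp at Otx2, 2485 bp at Sox2 and 59 bp at Hesx1. The place of Emx1 between Emx2 and Otx2 is not settled by these libraries, since its extent in single controls, from 6972 to 8552 bp, overlapped both that of Emx2, from 8115 to 8391 bp, and that of Otx2, from 4706 to 7331 bp. Sox2 was shorter in each control, from 2386 to 3132 bp. Pax6 ran from 17183 to 23880 bp and Lhx2 from 20464 to 22739 bp, so the order of Pax6 and Lhx2 is not settled either.

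**Figure D1:**
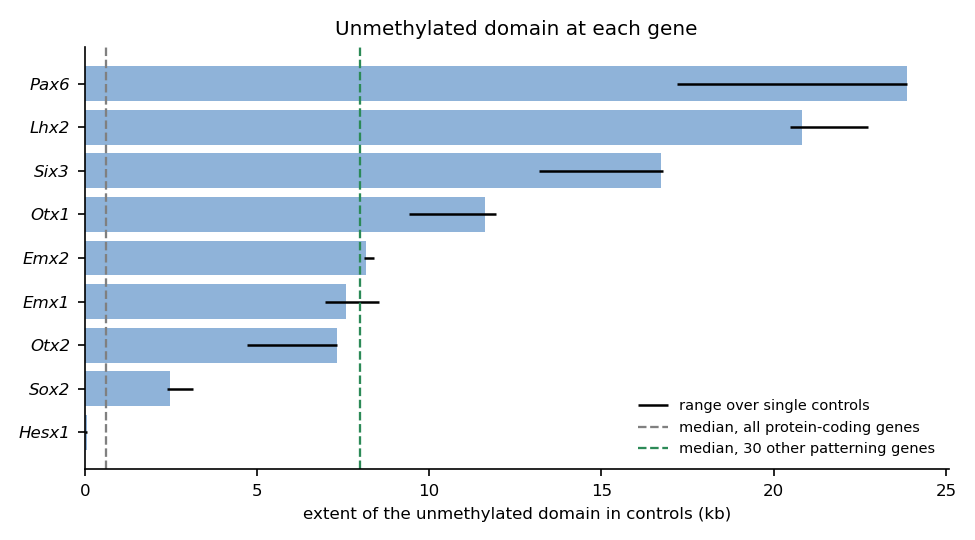
Extent of the unmethylated domain (kb) from the mean of the 6 controls, as bars, with the range over single controls as black lines; dashed lines give the medians of all protein-coding genes and of 30 other patterning genes. Pax6 (23880 bp), Lhx2 (20818 bp) and Six3 (16721 bp) reach furthest, and Hesx1, with 5 measured CpGs, spans 59 bp.

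These lengths join measured CpGs. Only 12.5 to 32.9% of the CpGs of the reference were measured in the windows of the 8 genes other than Hesx1, where 3.07% were, and the longest unmeasured gap inside a domain was 905 bp at Sox2 and 6657 bp at Lhx2. Methylated CpGs ended the domain on the downstream side of Emx1, Otx2, Lhx2 and Pax6, and the other ends were reached for lack of measured CpGs. A domain may reach further at those ends, and it may be shorter where an unmeasured gap holds methylated CpGs. When the domains were followed up to 30 kb past the windows, Emx1 and Lhx2 kept their extents, Pax6 reached 30752 bp, Emx2 20348 bp, Six3 20318 bp, Otx1 14159 bp and Sox2 28996 bp, with an unmeasured gap of 8900 bp inside it at Sox2, so the order of the genes changed. Otx2 then reached 38971 bp and Hesx1 30748 bp, but across gaps of 27007 and 29865 bp without a measured CpG.

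Set against other genes with at least 10 measured CpGs, the domains were long. The median extent was 9894.5 bp over the 8 members with that many CpGs and 615 bp over 14421 protein-coding genes. An extent of at least 5 kb was reached by 7 of the 8 members (87.5%) and by 7.10% of all genes. Of all genes, 0.929% had an extent as long as that of Pax6, 1.1% as long as Lhx2 and 12.6% as long as Sox2. The other 30 forebrain and neural patterning genes, among them Fezf2, Nr2f1 and Zic2, had a median of 7982 bp, and 25 of the 30 reached 5 kb. The start sites differed less, since CpGs within 1 kb of the start site had a median level of 0.989% over 7 members, 1.06% over 28 other patterning genes and 1.11% over 12528 genes. Gene bodies differed more. CpGs inside the gene and over 1 kb past the start site had a median of 2.76% over the 8 members, 1.48% over 29 other patterning genes and 83.5% over 9462 genes. These comparisons are descriptions without a test, and they depend on where MspI fragments lie.

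**Figure D2:**
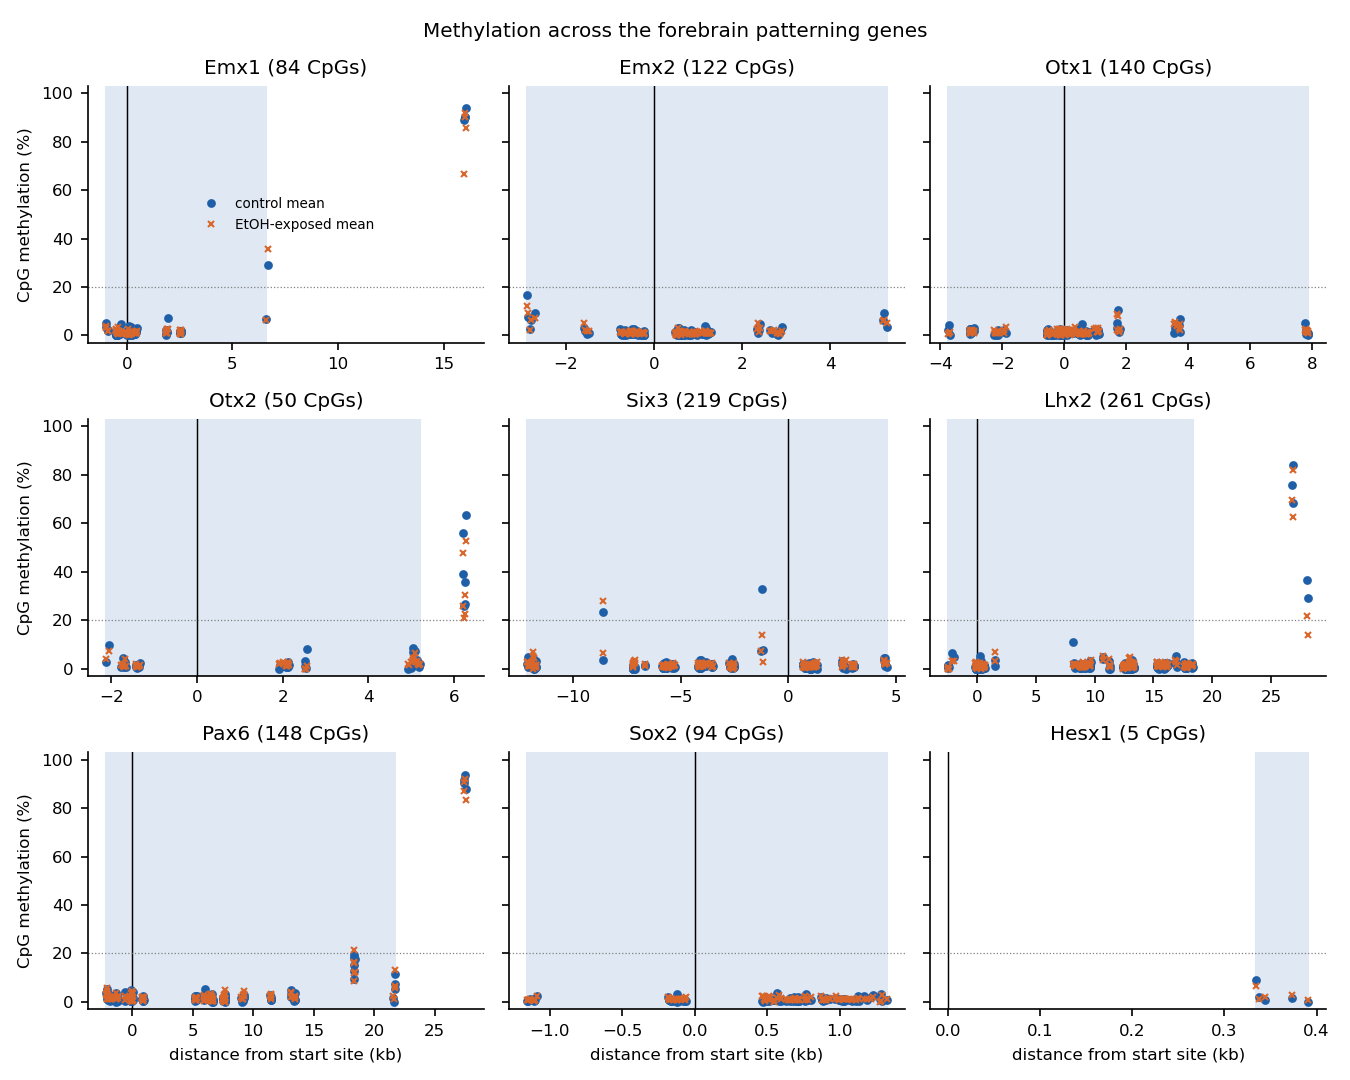
Mean methylation (%) of each CpG in controls (blue points) and EtOH-exposed embryos (orange crosses) against the distance from the start site (kb), 1 panel per gene, with the unmethylated domain of the controls shaded and the 20% limit dotted. Most CpGs inside the shaded domains lie near 0, apart from 2 CpGs of Six3 at 23.4 and 32.8% and weakly methylated CpGs such as those of Pax6 intron 7. Methylated CpGs appear past the downstream end of the domain at Emx1, Otx2, Lhx2 and Pax6.

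The CpGs at or above 20% lay past the downstream end of the domain in Emx1, Otx2, Lhx2 and Pax6, and upstream of the start site in Six3. In Emx1, the level was 6.90% ± 6.01 (SD, n = 6) at 6593 bp past the start site and 29.1% ± 3.48 (SD, n = 4) at 6685 bp, both in intron 2, and it was 89.1 to 93.8% at the 4 CpGs around the start of exon 3, from 15970 to 16042 bp. In Pax6, 4 CpGs of exon 13, from 27414 to 27563 bp, the last 2 of them in the 3′ UTR, had 88.0 to 93.6%. In Lhx2, CpGs of intron 4 had 68.5 to 84.3% from 26836 to 26891 bp, and 36.6% ± 9.52 (SD, n = 6) and 29.1% ± 10.9 (SD, n = 4) further on, at 28105 and 28178 bp. Emx2, Otx1 and Sox2 had no measured CpG at or above 20%, and at Sox2, a single-exon gene, none reached 5%. Hesx1 had 5 CpGs, in the 5′ UTR and the coding part of exon 1, of which 1 had 9.05% ± 2.34 (SD, n = 3) and the others were under 5%.

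Weakly methylated CpGs also lay inside the domains. In intron 7 of Pax6, 6 CpGs from 18295 to 18390 bp had control means of 9.60 to 19.5%, with 93 to 243.5 reads in the median library. In Otx1, the CpG at 1730 bp in intron 2 had 10.7% ± 4.40 (SD, n = 6). At Emx2, 4 of the 5 CpGs from −2882 to −2715 bp had 6.54 to 16.9%, and the other had 2.75%. At Six3, 2 single CpGs stood above their neighbours, with 23.4% ± 3.66 (SD, n = 3) at −8615 bp and 32.8% ± 25.7 (SD, n = 5) at −1253 bp. Distances at Six3 are from the curated start site, which lies inside the RefSeq gene, so they can exceed 5 kb upstream.

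After ethanol exposure, no tile of the 9 genes met the call used here. A tile is a window of 100 bp with at least 2 CpGs of at least 10 reads on a strand, and it was called when a logistic likelihood-ratio test gave a Benjamini–Hochberg q under 0.01 and the coverage-weighted level differed by at least 10 percentage points. Of the 144 tiles of the members, 0 were called, against 1.14% of 114430 tiles of the genome. At an unadjusted p under 0.05, 67 of the 144 tiles passed the logistic test (42.3% of all tiles did). An F test that allows for the spread between embryos was passed by 9 (5.77% of all tiles), and limma by 5 (4.45% of all tiles). Neither the F test nor limma called a tile, among the members or among all 114430 tiles. The differences ran from −8.29 to 2.01 points. In controls, 135 of the 144 tiles were under 5%, where a decrease of 10 points is not possible, against 58789 of the 114430. The 30 other patterning genes had no called tile either.

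In 7 of the 8 genes with tiles, the tile with the smallest p was nearly unmethylated and somewhat higher in EtOH-exposed embryos. The control level of these 7 tiles was 0.461 to 0.762% and the EtOH-exposed level 1.19 to 2.31%, with differences of 0.445 to 1.85 points. EtOH-exposed embryos 4, 5 and 6 were the 3 highest of the 19 to 22 embryos with a value in 5 of the 7 tiles, and without them the differences were −0.0897 to 0.518 points. With the spread between embryos allowed for, the q of these tiles was 0.843 to 0.924 (F test). The eighth gene, Otx2, is described further on.

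The level of the unmethylated CpGs in each embryo was taken over the CpGs of a gene with at least 10 reads in all 22 samples. Their mean level over the 22 samples, EtOH-exposed embryos included, had to be under 20%. This left 5 to 67 CpGs in 8 of the 9 genes. Hesx1 had no CpG with values in all 22 samples. Of the 8 genes, 0 were called at an adjusted p under 0.05 by an exact permutation test over 74613 splits (adjusted p = 0.99992 for each, unadjusted p from 0.635 to 0.962), and 0% of 9731 genes of the genome were. None of the 8 genes had an unadjusted p under 0.05, against 1.91% of all genes.

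At Lhx2 (66 CpGs), controls had 0.575, 0.740, 0.779, 0.993, 1.22 and 1.63%, and EtOH-exposed embryos had a lowest value of 0.212%, a median of 1.12% and a highest value of 3.06%. Controls averaged 0.989% ± 0.385 (SD, n = 6) and EtOH-exposed embryos 1.18% ± 0.941 (SD, n = 16), 0.19 points apart, with overlapping ranges (exact permutation test, p = 0.642). At Six3 (67 CpGs), controls ran from 0.709 to 1.63% and EtOH-exposed embryos from 0.376 to 3.17%, with means of 1.11% ± 0.382 (SD) and 1.26% ± 0.892 (SD; p = 0.7). Pax6 (23 CpGs) was higher than the other 7 genes, with 3.95 to 6.95% in controls and 3.48 to 7.33% in EtOH-exposed embryos (means 5.03% ± 1.21 SD and 4.85% ± 1.07 SD; p = 0.738). Its mean held 5 of the 6 CpGs of the patch in intron 7. The CpG at 18337 bp, with 19.5% in controls and 21.5% in EtOH-exposed embryos, was left out by the limit on the mean of all 22 samples. The differences at Emx2 (25 CpGs), Sox2 (14 CpGs), Otx1 (24 CpGs), Otx2 (5 CpGs) and Emx1 (9 CpGs) were 0.19, 0.11, 0.031, 0.020 and −0.059 points. At these 5 genes too, the ranges of the groups overlapped.

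**Figure D3:**
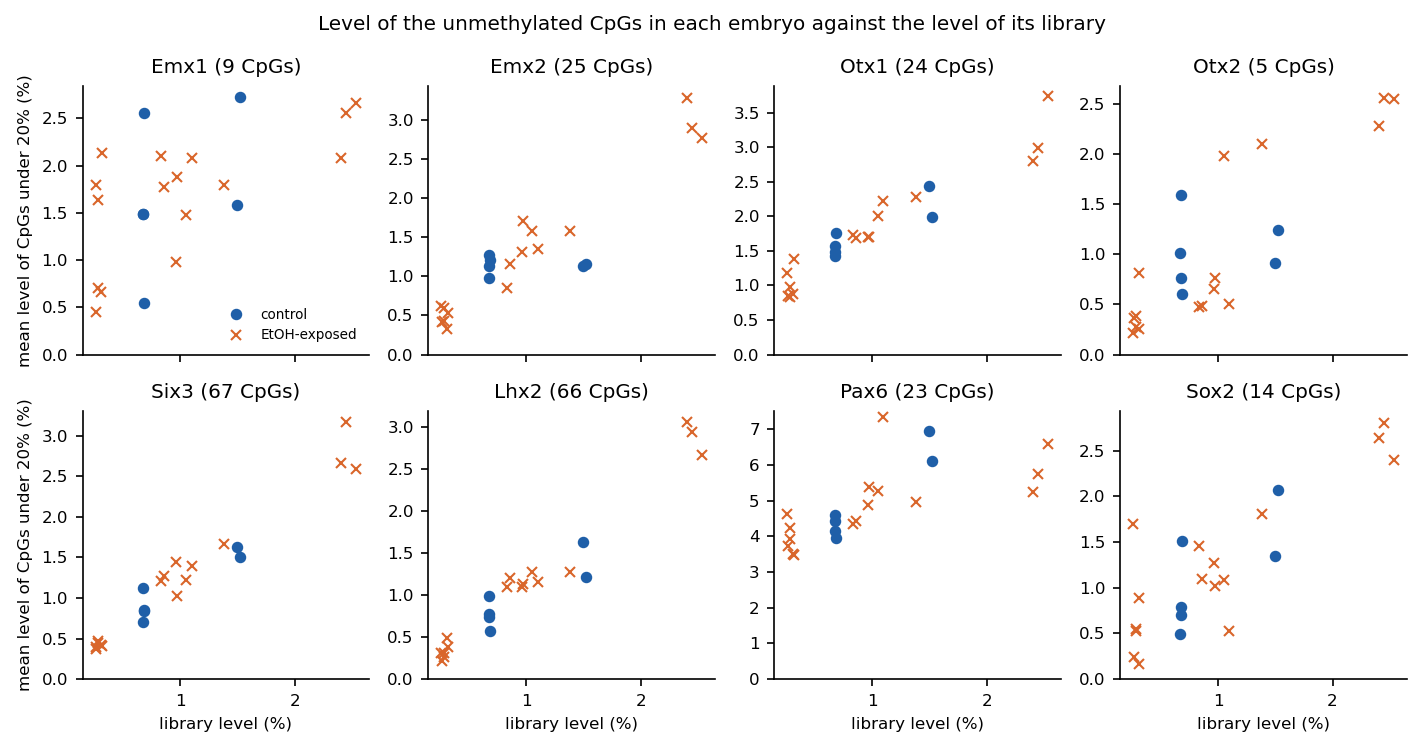
Mean level (%) of the CpGs under 20% of each gene in each embryo (y axis, from 0) against the level of the same library at unmethylated tiles of the genome (%; x axis), with controls as blue points and EtOH-exposed embryos as orange crosses. In 6 of the 8 genes, EtOH-exposed embryos 4, 5 and 6, at the right, lie above the other 19 embryos.

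Over all 22 libraries, the levels of the 8 genes rose with the level of the library. In 6 of the 8 genes, EtOH-exposed embryos 4, 5 and 6 each lay above the other 19 embryos, at Lhx2 with 2.67 to 3.06% against 0.212 to 1.63%. The 6 EtOH-exposed libraries of the lowest level had 0.212 to 0.492% at Lhx2 and 0.376 to 0.467% at Six3, below each control. Across the 22 libraries, Pearson's r with the library level was 0.98 at Six3, 0.97 at Lhx2, 0.95 at Otx1, 0.93 at Emx2, 0.84 at Sox2, 0.84 at Otx2, 0.70 at Pax6 and 0.59 at Emx1. Among the 6 controls alone, r was 0.95 at Pax6, 0.93 at Six3, 0.88 at Otx1, 0.87 at Lhx2 and 0.73 at Sox2. It was 0.41 at Emx1, 0.12 at Otx2 and −0.024 at Emx2. The r over 22 libraries are descriptions over libraries that fall into separate groups. With the library level subtracted, the difference was 0.13 points at Lhx2 (p = 0.202) and 0.089 points at Six3 (p = 0.307), and within the shared library group it was 0.19 (p = 0.230) and 0.21 points (p = 0.230; exact permutation tests). Without EtOH-exposed embryos 4, 5 and 6, the difference turned negative at Lhx2 (−0.204 points, p = 0.345) and Six3 (−0.207 points, p = 0.371), and it was negative at each of the 8 genes, from −0.409 to −0.189 points (exact permutation tests, p from 0.245 to 0.483).

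Single CpGs were tested in the same way as tiles, with both strands added and at least 10 reads. Of the 760 tested CpGs of the members, 3 were called, 1 each in Emx1, Six3 and Lhx2, against 1.39% of 644553 CpGs of the genome. In controls, 730 of the 760 CpGs were under 5%, where a decrease of 10 points is not possible, against 408344 of the 644553. All 3 were lower in EtOH-exposed embryos, and all 3 lay in CCGG. The differences over the 760 CpGs ran from −19.6 to 2.93 points. With the spread between embryos allowed for, 0 of the 760 were called, as were 0 of all 644553 CpGs (F test). An unadjusted p under 0.05 in the F test was reached by 43 of the 760, against 6.44% of all tested CpGs. The calls in Emx1 and Lhx2 were made without each of the 22 embryos in turn, and that at Six3 in the 17 cases that left 5 controls.

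The CpG in intron 2 of Emx1 (chr6:85203901-85203902) had 70.6, 85.7, 88.6, 89.7, 100 and 100% in controls, and a lowest value of 14.3%, a median of 70.1% and a highest value of 91.7% in 14 EtOH-exposed embryos. The groups overlapped, and controls averaged 89.1% ± 10.9 (SD, n = 6), EtOH-exposed embryos 66.6% ± 21.2 (SD, n = 14; q = 7.8e-05, logistic test; q = 0.727, F test). EtOH-exposed embryos 4, 5 and 6 had 14.3, 46.7 and 45.8%, the 3 lowest values. The next CpGs of the same stretch, at 15999 and 16017 bp in exon 3, outside CCGG, both had 90% in controls, and 90 and 91.8% in EtOH-exposed embryos. The last CpG of the stretch, at 16042 bp, is also in CCGG, and there embryos 4, 5 and 6 had 86.2, 91.2 and 92.6%, within the 75 to 100% of 4 controls. At this last CpG, EtOH-exposed embryos 1 and 12 had 50 and 45.5%, below each of these controls. Without embryos 4, 5 and 6 the coverage-weighted difference at the called CpG was −12.4 points (q = 0.0258), no longer called. Within the shared library group, which also lacks these embryos, it stayed called.

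The CpG in intron 4 of Lhx2 (chr2:38367386-38367387) had 26.0, 29.7, 31.6, 35.7, 47.8 and 48.5% in controls and 9.76 to 39.4%, with a median of 23.4%, in 16 EtOH-exposed embryos. Most of the EtOH-exposed embryos lay under the lowest control, and the rest overlapped the controls. Controls averaged 36.6% ± 9.52 (SD, n = 6) and EtOH-exposed embryos 21.7% ± 9.55 (SD, n = 16; q = 0.000127, logistic test; q = 0.723, F test). Without embryos 4, 5 and 6 it was still called, with a coverage-weighted difference of −11.2 points (q = 0.00302). Within the shared library group, which also lacks these embryos, it was not called. Further on in the same intron, the CpG at 28178 bp, also in CCGG, had 18.5, 23.8, 30.3 and 43.8% in 4 controls and 6.67 to 23.5% in 8 EtOH-exposed embryos, too few controls for the logistic test (means 29.1 and 13.8%; exact permutation test, unadjusted p = 0.00808).

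The CpG before the curated start site of Six3 (chr17:85619581-85619582) varied within each condition. The RefSeq gene begins at 85613608 and the curated start site is at 85620834, so this CpG lies inside the gene. Controls 1 to 5 had 3.12, 15, 38.5, 70 and 37.5%, and EtOH-exposed embryos had 0 to 47.8%, with a median of 8.86%. Controls averaged 32.8% ± 25.7 (SD, n = 5) and EtOH-exposed embryos 14% ± 15.6 (SD, n = 16; q = 3.8e-06, logistic test; q = 0.818, F test), with 10 to 697 reads per embryo. It lost the call without EtOH-exposed embryos 4, 5 and 6 (−13.7 points, q = 0.0126). The 100-bp tile around it differed by −8.29 points, and without control 1 by −11.1 points (q = 4.99e-05), which made it the 1 member tile called when a single embryo was left out.

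The patch in coding exon 4 of Otx2 was partly methylated in both conditions. Its 6 CpGs span 6203 to 6278 bp past the start site, and the 93 bp printed above lie within a coding exon of each of the 6 curated Otx2 transcripts. Control means of the 6 CpGs were 39.1, 55.9, 25.7, 35.7, 26.6 and 63.3% in the order in which the gene is read, and EtOH-exposed means were 25.7, 47.6, 20.7, 30.4, 22.6 and 52.9%. The means over embryos were lower at each of the 6, but the coverage-weighted level at 6247 bp was 31.3% in controls and 31.6% in EtOH-exposed embryos. The CpGs share reads and are not independent. In the tile that holds the first 3 of them, 5 controls had 33.5, 39.3, 31.5, 47.7 and 51.2%, and 16 EtOH-exposed embryos had a lowest value of 21.8% and a highest of 45.1%. Controls averaged 40.6% ± 8.62 (SD, n = 5) and EtOH-exposed embryos 32.1% ± 6.43 (SD, n = 16; exact permutation test, unadjusted p = 0.0265), the coverage-weighted difference was −6.33 points (q = 5.18e-08, logistic test), under the 10 points of a call, and with the spread between embryos allowed for, q was 0.866 (F test). Within the shared library group the tile had 33.1% in 7 EtOH-exposed embryos (exact permutation test, unadjusted p = 0.0568).

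**Figure D4:**
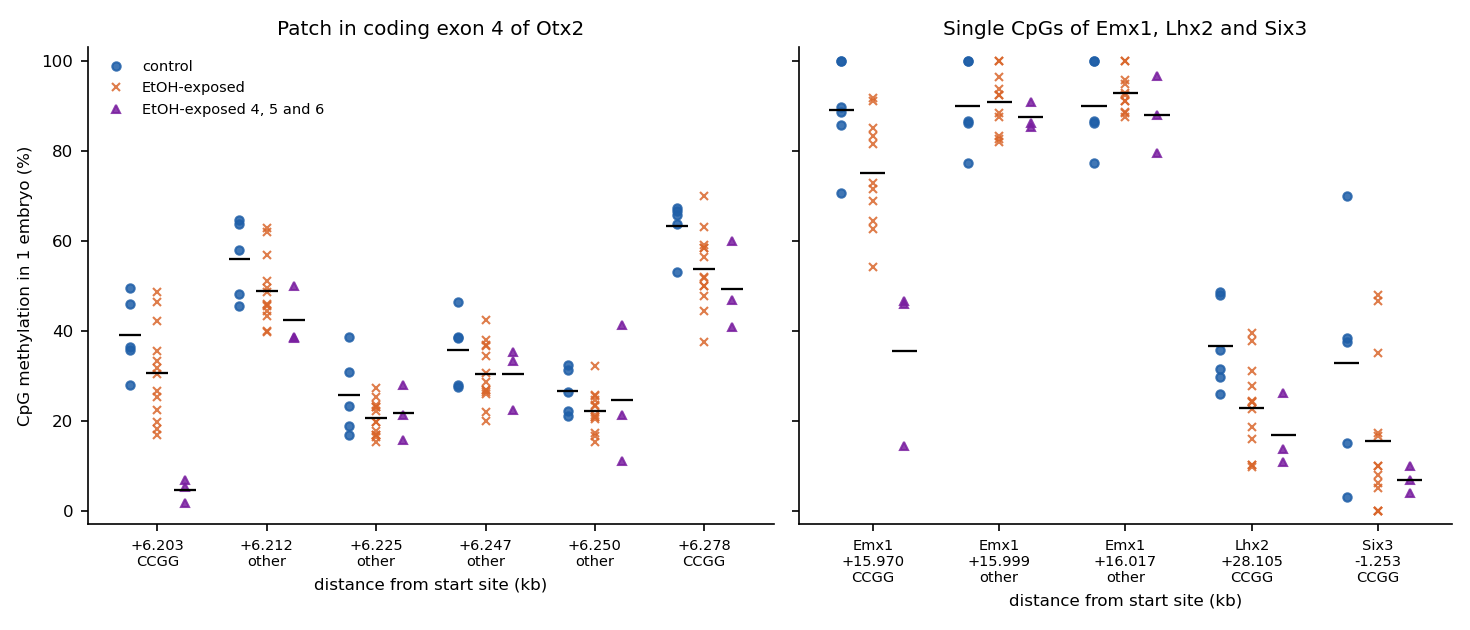
Methylation (%) in each embryo at the 6 CpGs of the Otx2 patch (left) and at the 3 called CpGs with the next CpGs of Emx1 (right), by distance from the start site (kb), with controls as points, EtOH-exposed embryos as crosses, EtOH-exposed embryos 4, 5 and 6 as triangles, and means as black bars. At 6203 bp of Otx2 and 15970 bp of Emx1, both in CCGG, these 3 embryos lie below the others.

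The first and the last CpG of the Otx2 patch lie in CCGG and the 4 between them do not. At the first, EtOH-exposed embryos 4, 5 and 6 had 1.72, 6.82 and 5.33%, the other 13 EtOH-exposed embryos 16.9 to 48.5% and controls 28 to 49.5%. At the last, embryos 4, 5 and 6 had 60, 46.9 and 40.9%, within the 37.5 to 70% of the other EtOH-exposed embryos. Over the 4 inner CpGs, embryos 4, 5 and 6 had 21.9 to 38.2%, against 26.8 to 38.2% in the other EtOH-exposed embryos and 28.6 to 42.0% in controls. Among the 22 CpGs of the members at or above 20% in controls, the EtOH-exposed mean was lower at 10 of the 12 in CCGG, with a median difference of −9.18 points, and at 8 of the 10 others, with a median difference of −3.20 points. The CpGs were selected on control levels, so these counts are descriptions.

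The same comparison was made over the genome, after the values above had been seen. Of all called CpGs, 71.3% lay in CCGG, against 22.5% of the tested ones. These shares are not of like sets, since 408344 of the 644553 tested CpGs were under 5% in controls. A decrease of 10 points is not possible there. Over 4446 CpGs in CCGG with a mean of 20 to 80% in all 22 samples, controls had 61.4 to 65.3%, embryos 4, 5 and 6 had 39.8 to 41.7% and the other EtOH-exposed embryos 44.8 to 64.3%. Over 8914 other CpGs of that level, controls had 57.5 to 59.7%, embryos 4, 5 and 6 had 46.0 to 47.9% and the other EtOH-exposed embryos 50 to 60.4%. The difference between the conditions was −8.82 points in CCGG (exact permutation test, p = 0.0187) and −4.07 points elsewhere (p = 0.0518). The class was set by a mean that includes EtOH-exposed embryos. A CpG over 80% in controls entered it only where EtOH-exposed embryos were lower, and one under 20% only where they were higher. The sizes of the differences can depend on this selection. Over 9297 CpGs in CCGG with a mean of 80% or more, the difference was −2.91 points (exact permutation test, p = 0.0287). Over 22737 other CpGs of that level, it was −0.933 points (p = 0.184). The part of the library differences in the calls at Emx1, Six3 and Lhx2 was not tested.

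**Figure D5:**
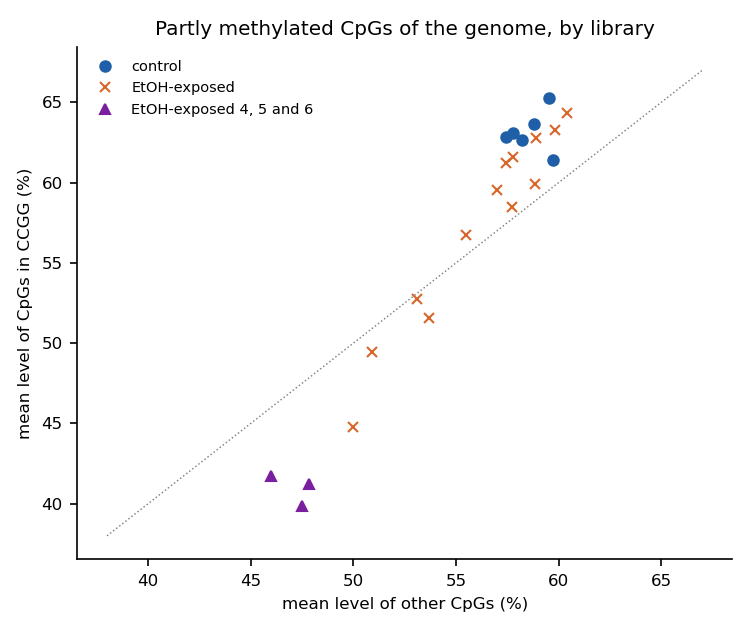
Mean level (%) of 4446 partly methylated CpGs in CCGG (y axis) against 8914 other partly methylated CpGs (x axis) of the genome in each library, with controls as points, EtOH-exposed embryos as crosses and EtOH-exposed embryos 4, 5 and 6 as triangles; the dotted line marks equal levels. Controls lie above the line, at 61.4 to 65.3% in CCGG, and embryos 4, 5 and 6 below it, at 39.8 to 41.7%, as do EtOH-exposed embryos 2, 8, 9 and 14, at 44.8 to 52.8%.

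In the tile that holds 5 of the 6 CpGs of the weakly methylated patch of Pax6, controls had 15.9% ± 4.47 (SD, n = 6) and EtOH-exposed embryos 15.3% ± 1.40 (SD, n = 16; exact permutation test, p = 0.615), with 151 to 2461 reads per embryo. The last of these CpGs, at 18390 bp in CCGG, had 17.8% ± 7.63 (SD, n = 6) and 12.4% ± 3.99 (SD, n = 16; exact permutation test, p = 0.0366). The tile upstream of Emx2, from −2889 bp, had 7.13% ± 2.86 (SD, n = 5) and 6.81% ± 1.92 (SD, n = 12; exact permutation test, p = 0.784). In Otx1, the tile around 1730 bp had 6.63% ± 1.96 (SD, n = 6) and 5.03% ± 1.81 (SD, n = 16; exact permutation test, p = 0.0857). At the methylated end of Pax6, exon 13 kept levels of 83.3 to 91.8% in EtOH-exposed embryos. In Emx1, the CpG at 6685 bp in CCGG, past the end of the domain, had 35.8% ± 11.2 (SD, n = 13) in EtOH-exposed embryos and 29.1% ± 3.48 (SD, n = 4) in controls (exact permutation test, p = 0.270). These p values are unadjusted, from 144 tiles and 57 CpGs of at least 5% in controls for which they were computed. Of the 57 CpGs, 7 had an unadjusted p under 0.05, each lower in EtOH-exposed embryos, and 6 of the 7 lay in CCGG, as did 30 of the 57. The 57 were selected on the control level, which favours lower values in EtOH-exposed embryos, and the share of all CpGs of the genome that pass this exact test was not computed. Beside those of Lhx2 and Pax6 already given, they were the called CpG of Emx1 (p = 0.0228), the last CpG of the Otx2 patch (p = 0.0214), the called CpG of Lhx2 (p = 0.00419), the CpG at 16937 bp of Lhx2 (5.29 and 2.94%, p = 0.0178) and the CpG at −1192 bp of Six3 (7.54 and 2.71%, p = 0.00482; exact permutation tests). Measured in EtOH-exposed embryos in place of controls, the median extent of the unmethylated domains was 8670 bp, against 8179 bp. The extent was the same in both conditions at Otx2, Pax6 and Hesx1, longer in EtOH-exposed embryos at Lhx2 (23271 bp), Otx1 (11945 bp), Emx1 (8670 bp), Emx2 (8404 bp) and Sox2 (3249 bp), and shorter at Six3 (13268 bp), without a test. Many ends were set by the last CpG with enough reads, and 16 libraries can measure other CpGs than 6. These extents therefore do not separate methylation from coverage.

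At the other genes, the CpGs with the smallest p were nearly unmethylated, as at Pax6 (chr2:105676453-105676454, intron 1), with 1.15% ± 1.11 (SD, n = 5) in controls and 0.197% ± 0.394 (SD, n = 16) in EtOH-exposed embryos (q = 0.00320, logistic test; q = 0.645, F test). The coverage-weighted differences were −1.15 points at that of Otx1, −1.04 at that of Sox2, −1.46 at that of Hesx1 and 1.49 at that of Emx2, with q of 0.0137, 0.0327, 0.313 and 0.0128 (logistic test). At Otx2, the CpG with the smallest p was the first of the patch (−9.20 points, q = 9.2e-05, logistic test; q = 0.831, F test).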

How the data were processed

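rRRBS libraries of 22 E10.5 forebrains were analysed, 6 control and 16 EtOH-exposed, grouped by the sample titles. The files deposited by the authors give, per cytosine of a CpG and strand, the count of reads and the percent methylation; the submitters' notes name Trim Galore 0.3.3 for trimming and BSMAP 2.90 for alignment. All 2809605 autosomal CpGs matched a CpG of GRCm38. Methylated counts were taken as coverage times percent. Only the 19 autosomes were used.

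The members and lists were chosen with earlier results of these data known. All 9 members are named, each with its called tiles and CpGs or, without a call, those of smallest p; other CpGs of at least 5% in controls were named after their values were seen, and of the other patterning genes only those with a called tile were to be named with test values.

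Tiles and CpGs were tested by a logistic likelihood-ratio test in at least 5 samples per condition, with Benjamini–Hochberg adjustment over all of them, and alternatively by an F test with overdispersion and by limma 3.58.1 on log2 ratios of counts with 0.5 added (R 4.3.3). Gene levels were tested by a two-sided exact permutation test. Python 3.11.15, numpy 2.4.6, scipy 1.17.1 and pandas 2.3.3 were used, and the tests were checked on simulated data. In data simulated with an assumed spread between embryos, the F test called 15 of 100 tiles changed by 15 points and 74 of 100 changed by 25 points. The changed tiles were of intermediate level, whereas 135 of the 144 member tiles were under 5% in controls. The rates therefore do not apply to those 135 tiles. Bisulfite reads carry no molecular identifiers, so read counts are not independent molecules.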

Additional observations from a re-analysis of the deposited data

Results flagged for a closer look

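One of 25 groups of 4 to 10 embryos examined held a value far from the others, where chance gives about 1 in 20. At the Emx1 tile with the smallest p, which starts 30 bp before the start site, control 5 had 0.342%, whereas the other 4 controls had 0.838 to 0.981%.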

How the results depend on the processing

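The count of called member tiles was 0 under each alternative except q alone, which gave 34 (21.8% of all tiles passed), and leaving out single embryos, which gave 0 to 1 (the Six3 tile without control 1). The count of called CpGs, 3, was 0 with overdispersion, 1 with 20 reads and 1 within the shared library group. It was also 1 without EtOH-exposed embryos 4, 5 and 6, an alternative chosen after seeing the data, as was the CCGG comparison. The CpG left within the shared library group was that of Emx1, and the CpG left without embryos 4, 5 and 6 was that of Lhx2. Without single embryos the count was 2 to 4. Of all 644553 tested CpGs, 1.39% were called in the main test and 0 with overdispersion. The shares of all CpGs called under the other alternatives are not given here, so those counts are not read as a result about the members. The causes were not tested. No gene level was called under any alternative. The median domain extent, 8179 bp, was 8381 bp with a limit of 50%, 7580 bp when 1 CpG ended a domain, 20818 bp when followed 30 kb past the window and 8670 bp in EtOH-exposed embryos.

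Differences near 0 changed sign. For Pax6 the gene level difference was 0.14 with limits of 10 and 90%, 0.091 with missing samples allowed, 0.63 with pooled reads, 0.19 in the shared library group and 0.0044 without CCGG. For Otx1 it was −0.078 with 5 reads, −0.056 with 20, −0.18 pooled, −0.030 relative to the library level and −0.090 without CCGG. For Sox2 it was −0.0066 with 20 reads, −0.013 pooled and −0.10 without CCGG, for Emx1 0.0094 with 20 reads, 0.19 with the replicate block and 0.00058 without CCGG, and for Otx2 −0.028 in the shared library group and −0.042 relative to the library level. Without single embryos it ran from −0.40 to 0.20 for Pax6, −0.30 to 0.14 for Emx1, −0.082 to 0.13 for Otx2, −0.097 to 0.16 for Otx1 and −0.022 to 0.29 for Sox2. Without EtOH-exposed embryos 4, 5 and 6 it was negative for each of the 8 genes, and thereby turned for Lhx2 (−0.204), Six3 (−0.207), Emx2 (−0.189), Otx1 (−0.285), Sox2 (−0.202) and Otx2 (−0.308). The smallest-p tile of Emx1 had −0.090 points without EtOH-exposed embryos 4, 5 and 6 and −0.33 with a library covariate, and that of Emx2 −0.13 with the covariate.

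Embryos with the same number were not paired, with correlations of their deviations from −0.150 to 0.173, 1 of 6 controls correlating best with its own number. With the replicate block, 0 tiles, 4 CpGs and 0 genes of the members were called. The share of all CpGs called with the block is not given here. Several of the named CpGs had as few as 10 reads in a library.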
